A study of Mus musculus with 36 samples.

Results

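The myoglobin locus was followed in the open chromatin of nuclei prepared from mouse hearts after myocardial infarction or a sham operation. Its members are all listed ATAC-seq regions that overlap positions 76800000 to 76920000 of chromosome 15 in the mm9 build, a window of 120.0 kb around Mb, whose gene span was taken as about 76845000 to 76880000. The rule found 40 of the 122759 regions in the deposited lists, with 15, 12 and 13 of them in the lists of days 4, 7 and 14. The locus was chosen with its border zone and sham tags known, among them those of a wide region of day 7, so these values are a description and no test is made on them.

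Myoglobin is the oxygen-binding haem protein of heart and slow skeletal muscle, where it stores oxygen and carries it towards the mitochondria, and it also scavenges nitric oxide. Its gene is expressed at a very high level in cardiomyocytes, and it is a common marker of mature, oxidative muscle. In ATAC-seq a transposase cuts accessible DNA, so that promoters, enhancers and strongly transcribed genes collect many sequencing tags.

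The border zone is the surviving muscle next to the infarct scar, and it was set against the left ventricle of sham-operated mice. The libraries were border zone on days 4, 7 and 14 after myocardial infarction and sham on days 4, 7 and 14 after the sham operation, 1 library for each condition and day, all from mice on the FVB/N background. On day 4 the labels name Cdh5-Cre; Sun1-sfGFP mice, in which Cdh5, an endothelial gene, drives the Cre. They give both a sort by GFP and a pulldown with PCM1, a protein around cardiomyocyte nuclei, read as pairs of 76 bp, and do not say which sorted fraction entered the pulldown. On days 7 and 14 in both conditions the nuclei are labelled Myh6-MerCrMer;nTnG, a cardiomyocyte-driven inducible Cre with a nuclear reporter. These mice had received tamoxifen at 20 mg/kg, and 50000 sorted nuclei were used per sample. Age and sex were not used, and how many animals a library holds was not found in the labels.

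The border zone libraries of days 4, 7 and 14 had 5470461, 2743519 and 10327884 whole tags in listed regions, against 5907384, 3858892 and 13936013 in the sham libraries. Library depth itself is not known from the lists. The border zone values below are as listed, scaled by the authors towards sham by about 1.35 on day 7 and 1.37 on day 14, and unscaled or scaled by 1.03 on day 4 for the members. A fold is border zone over sham, and its range is the exact 95% Clopper-Pearson interval of the tags, which covers counting error only. Cardiomyocyte, endothelial, fibroblast and leukocyte marker genes were not placed on mm9, so the purity of the nuclei was not checked here. The nuclei preparation and the aligner change between day 4 and the later days, and what differs between day 4 and days 7 and 14 cannot be told apart from that change.

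RefSeq gives Mb 3 starts on the minus strand of GRCm38.p6, a far start and, 27.9 kb further into the gene, a pair of starts 60 bases apart. The pair lies 7.3 and 7.2 kb above the lower end of the gene. The 250 bases before the far start and before the upper start of the pair are shown because, judged by distance along the gene, open chromatin was listed on every day where the pair lies and on no day around the upper end. Capitals mark matches to the motifs searched.
Far start, chr15:77050669-77050918, minus strand, GRCm38.p6: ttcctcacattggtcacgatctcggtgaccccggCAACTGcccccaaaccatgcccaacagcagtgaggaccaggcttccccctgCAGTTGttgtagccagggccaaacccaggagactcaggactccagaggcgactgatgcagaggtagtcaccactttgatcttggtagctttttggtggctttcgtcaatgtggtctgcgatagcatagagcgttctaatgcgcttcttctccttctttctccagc
Upper start of the pair, chr15:77022788-77023037, minus strand, GRCm38.p6: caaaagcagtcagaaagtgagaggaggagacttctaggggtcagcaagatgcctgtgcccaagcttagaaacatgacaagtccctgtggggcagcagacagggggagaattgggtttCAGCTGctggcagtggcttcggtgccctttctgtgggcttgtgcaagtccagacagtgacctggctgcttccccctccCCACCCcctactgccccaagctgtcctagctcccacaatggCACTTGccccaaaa

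The motifs searched on both strands were the E-box, spelled CANNTG, the core bound by MEF2 factors, spelled TAAAAATA, the CACCC-type box of muscle genes, spelled CCACCC, and the sites of AP-1, spelled TGANTCA, of GATA factors, spelled AGATAA, of nuclear receptors, spelled AAGGTCA, and of TEAD factors, spelled CATTCC. The sequence before the upper start of the pair held 1 CACCC-type box, 55 to 50 bases before the start, and 2 E-boxes, CAGCTG at 133 to 128 bases and CACTTG at 14 to 9 bases before it. The sequence before the lower start of the pair, which overlaps it, held 3 E-boxes, of which CATGTG is the added match, and the same CACCC-type box. The sequence before the far start held 2 E-boxes, CAACTG and CAGTTG, and no CACCC-type box. Of all 32851 RefSeq promoters cut to the same length, 66.2% held an E-box and 28.1% a CACCC-type box. The other motifs had no match in these 3 sequences, and were found in 2.45% (MEF2), 6.75% (AP-1), 9.99% (GATA), 4.08% (nuclear receptor) and 12.6% (TEAD) of promoters. None of the searched motifs overlapped another. Such matches describe letters and not bound sites.

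The lists are in mm9 and the RefSeq tables in GRCm38, so starts were not placed on the regions by coordinate. By distance from the lower end of the gene, which is only approximate in mm9, the start pair at 7.2 to 7.3 kb falls inside the window's widest region of day 7, which reached from 1.25 kb below that end to 9.25 kb above it. The region at 76866251 to 76869250 lies 21.3 to 24.2 kb above the lower end, between the pair and the far start. No list of any day held a region in the 29.5 kb from 76869251 to 76898750, which takes in the upper end of the gene. In GRCm38 the far start lies inside the neighbouring gene Apol6, and the nearest protein-coding genes beyond are 1110038F14Rik below and Rbfox2 above.

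The stretch over the lower part of Mb had fewer border zone than sham tags on all 3 days, and its fold was lowest on day 7. The median fold of all listed regions was 0.938, 0.906 and 1.02 on days 4, 7 and 14, and so was also lowest on day 7. On that day a single sham-higher region of 10.5 kb ran from 76843751 to 76854250. It had 1775 border zone tags, against 4096 in sham, a fold of 0.433 (0.407 to 0.461). By sham tags it ranked 5 among the 34952 listed regions of that day, and by width 15. A lower fold was found in 8.01% of them. For the parts of the stretch listed on day 4 that share was 4.34% to 22.4%, and for those of day 14 it was 6.39% to 29.7%. By this rank the day 7 region did not lie outside the parts of the other days. Per kb it held 169 border zone and 390 sham tags, which is 2.62 times the median listed region of the border zone library and 5.74 times that of the sham library. The 500 bp just below it, 76843251 to 76843750, formed a region of their own that was not differential, with 49.8 border zone tags, against 63 in sham (fold 0.791, 0.512 to 1.21).

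On day 4 the same stretch was listed as 3 regions. The lowest, 76843251 to 76846750, had 964 border zone tags, against 1456 in sham (fold 0.662, 0.61 to 0.719), and was listed as not differential. The next, 76846751 to 76847750, had 24.8 border zone tags, against 48 in sham (fold 0.517, 0.303 to 0.861), and was listed as sham-higher. The uppermost, 76848251 to 76853750, had 1098 border zone tags, against 1448 in sham (fold 0.758, 0.7 to 0.821), and was not differential. The sham-higher call of day 4 in the gene thus rested on the part with the fewest tags. Among all regions in the differential lists the smallest fold, in either direction, was 1.75 on each of days 4, 7 and 14. The parts listed as not differential had smaller folds than that, also where their counting interval lay below 1. A list label is therefore not a measure of counting error. In sum the stretch had 2087 border zone tags, against 2952 in sham, a fold of 0.707 (0.668 to 0.748).

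On day 14 it was again listed as 3 regions, which adjoin without a gap. The lowest, 76843751 to 76845250, had 3176 border zone tags, against 4939 in sham (fold 0.643, 0.612 to 0.676). At 2120 border zone and 3290 sham tags per kb it was the densest member, and ranked 44 in the border zone library and 13 in the sham library among 40980 regions by tags per kb. The middle part, 76845251 to 76847250, had 1292 border zone tags, against 2279 in sham (fold 0.567, 0.525 to 0.612), and was the only member of that day in a differential list. The upper part, 76847251 to 76853750, which by the distances above would hold the start pair, had 4835 border zone tags, against 5892 in sham (fold 0.821, 0.787 to 0.856). Together they had 9302 border zone tags, against 13110 in sham, a fold of 0.71 (0.689 to 0.731).

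The wide day 7 region therefore covers parts that the other days separate, and on those days the lower part was further below sham than the upper. The fold of the upper part was 1.15 times that of the lower part on day 4 (1.02 to 1.28) and 1.28 times on day 14 (1.2 to 1.36), a ratio that a common scaling factor cannot change. The middle region, with the lowest fold on both days (0.517 and 0.567), is left out of this ratio. The lower part is 76843251 to 76846750 on day 4 but 76843751 to 76845250 on day 14, so the ratios of these days compare unlike stretches. Day 7 gives 1 value for the whole stretch, so the same comparison is not possible there. Set against the median listed region of the same library, the density of the stretch was 3.16, 2.62 and 4.32 times the median in the border zone on days 4, 7 and 14, against 4.34, 5.74 and 6.24 times in sham. The median depends on which regions a day lists, and the larger of the 2 values of a listed region was at least 35, 50 and 150 tags on these days.

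**Figure D1:**
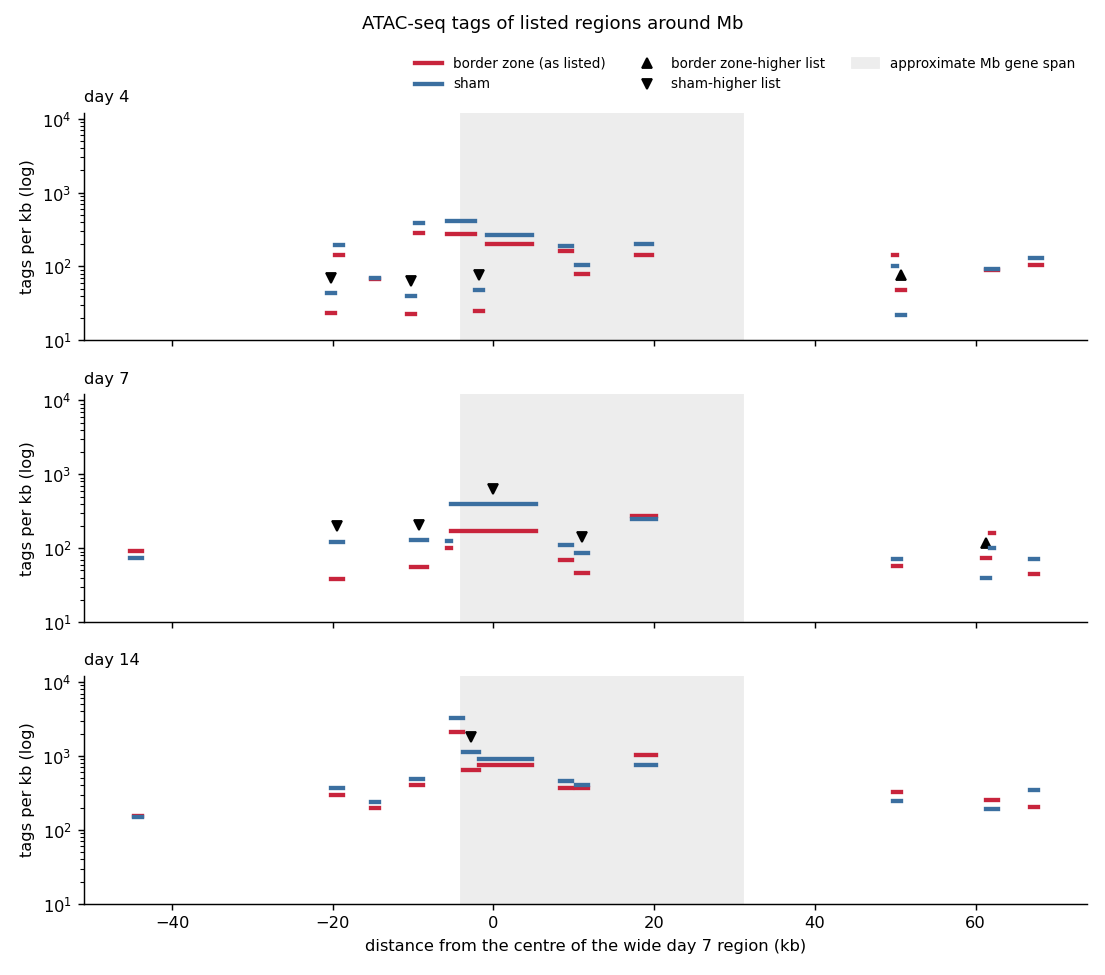
Tags per kb (log axis) of every listed region in the window, by distance in kb from the centre of the wide day 7 region, with a panel for each day. Red lines are border zone and blue lines sham, the line's length is the region's width, triangles mark differential lists and the grey band is the approximate gene span. The 10.5 kb region of day 7 is split into 3 on days 4 and 14, and no region lies in the upper end of the gene span.

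The region at 76866251 to 76869250, higher up in the gene, did not follow the lower part on days 7 and 14. On day 4 it had 290 border zone tags, against 401 in sham (fold 0.723, 0.62 to 0.843). On day 7 it had 819 border zone tags, against 745 in sham (fold 1.1, 0.986 to 1.23). On day 14 it had 2604 border zone tags, against 1913 in sham (fold 1.36, 1.28 to 1.45). It was listed as not differential on every day. The listed region was 76866751 to 76868750 on day 4 and 76866751 to 76869250 on day 14, and only day 7 listed the whole span. Without scaling of the border zone tags its day 14 fold was 0.993, and with a factor that equalises the listed tags of both libraries it was 1.34, so the excess over sham on that day needs a scaling of the border zone library.

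A comparison of the region at 76866251 to 76869250 with the wide stretch is free of that factor. In whole tags, this region and the wide stretch held 290 and 2086 in the border zone on day 4, against 401 and 2952 in sham. On day 7 they held 608 and 1318 in the border zone, against 745 and 4096 in sham. On day 14 they held 1899 and 6784 in the border zone, against 1913 and 13110 in sham. Its fold was thus 1.02 times that of the stretch on day 4 (0.868 to 1.21), 2.54 times on day 7 (2.24 to 2.88) and 1.92 times on day 14 (1.79 to 2.06). Part of the stretch lies below the approximate lower end of the gene. On day 14 this was most of its part from 76843751 to 76845250, with 4939 of the 13110 sham tags. In the border zone libraries of days 7 and 14 the tags of stretch and upper region were shifted towards the upper region, relative to the sham libraries of the same days. On day 4, with nuclei obtained in another way, the interval of this ratio includes 1.

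A pair of smaller regions lies between them. At 76857251 to 76858750 there were 245, 102 and 551 border zone tags on days 4, 7 and 14, against 281, 168 and 695 in sham, with folds of 0.872 (0.732 to 1.04), 0.609 (0.458 to 0.804) and 0.793 (0.7 to 0.898). At 76859251 to 76860750 there were 120, 68.7 and 547 border zone tags, against 158, 131 and 612 in sham, with folds of 0.759 (0.594 to 0.969), 0.524 (0.372 to 0.73) and 0.894 (0.786 to 1.02). Border zone values were below sham in both on each day. Of the listed regions of days 4, 7 and 14, 40.6%, 25.3% and 26.7% had a lower fold than the first. For the second these shares were 22.6%, 17.0% and 37.5%. The second of them was in the sham-higher list on day 7.

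Below the gene, on the side of its lower end, a pair of open regions also had their lowest fold on day 7. Their spans below join the regions of all days, whose ends differ, so the days compare partly unlike stretches. Both were in the sham-higher list on day 7. On day 4 each was listed as 2 regions, of which only the lower was sham-higher, and on day 14 neither was differential. At 76838251 to 76840750, 304, 110 and 603 border zone tags stood against 430, 259 and 722 sham tags on days 4, 7 and 14, with folds of 0.706 (0.608 to 0.82), 0.426 (0.329 to 0.549) and 0.836 (0.741 to 0.942). At 76828251 to 76830250, 166, 57.9 and 442 border zone tags stood against 242, 185 and 557 sham tags, with folds of 0.685 (0.559 to 0.838), 0.313 (0.219 to 0.438) and 0.793 (0.689 to 0.911). The fold of 0.313 was the lowest of any member, and 1.46% of the listed regions of day 7 had a lower one. These 2 loci, both regions between 76857251 and 76860750 and the wide stretch all had their lowest fold on day 7. This order also held with the factor per day that equalises the listed tags. It held with unscaled tags and with the median factor per day as well, but these could hardly change it. Leaving out the factor lowers day 7 and hardly moves day 4, and the median factor nearly repeats the listed values.

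Further regions were small. At 76833751 to 76834750, 68 border zone tags stood against 70 sham tags on day 4 and 200 against 241 on day 14, and day 7 lists no region there. At 76803751 to 76805250, 136 border zone tags stood against 111 sham tags on day 7 and 155 against 150 on day 14, and day 4 lists none. A region missing from the lists has no measured value.

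Above the gene, beyond the unlisted 29.5 kb, the 3 loci went different ways. At 76898751 to 76900250, 121, 56.6 and 325 border zone tags stood against 73, 72 and 247 sham tags on days 4, 7 and 14, with folds of 1.65 (1.22 to 2.24), 0.786 (0.524 to 1.17) and 1.32 (1.1 to 1.58), the last 0.96 without scaling. On day 4 the part from 76899251 to 76900250 was in the border zone-higher list, with 48.6 border zone tags, against 22 in sham (fold 2.21, 1.31 to 3.85). At 76909751 to 76911750, 134, 152 and 376 border zone tags stood against 140, 90 and 290 sham tags, with folds of 0.957 (0.75 to 1.22), 1.69 (1.27 to 2.26) and 1.3 (1.1 to 1.53). Here the part from 76909751 to 76910750 was border zone-higher on day 7, with 72.7 border zone tags, against 39 in sham. At 76915751 to 76917250, 157, 44.4 and 203 border zone tags stood against 197, 71 and 349 sham tags, with folds of 0.797 (0.642 to 0.988), 0.626 (0.401 to 0.959) and 0.581 (0.476 to 0.707).

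**Figure D2:**
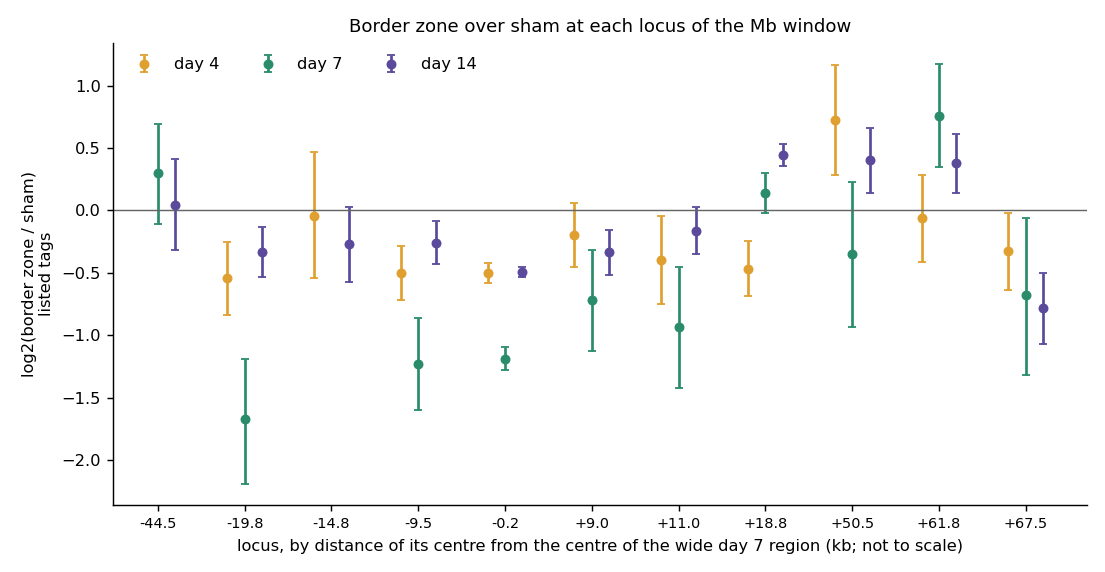
The log2 of border zone over sham tags (vertical axis, listed values) at the 11 loci of the window, ordered along the horizontal axis by the distance in kb of each locus from the centre of the wide day 7 region, which is not drawn to scale. Points are days 4, 7 and 14, 1 library pair each, and bars are exact 95% counting intervals. As listed, the loci from -19.8 to +11.0 kb lie below 0, with day 7 lowest wherever it is listed, and the locus at +18.8 kb lies below 0 on day 4 and above it on day 14, where its fold without scaling was 0.993.

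Over the 11 loci, formed by joining regions of different days that overlap, 9 were listed on all 3 days. The span given for a locus is the joined one, and what a single day lists can be shorter. In 7 of the 11 the border zone was below sham on every day they were listed, and in 1 it was above. The border zone was above sham in 1 of 10 listed loci on day 4, 3 of 10 on day 7 and 4 of 11 on day 14. Of all listed regions, more lay below sham than above on days 4 and 7, with median folds of 0.938 and 0.906. On day 14 more lay above than below, with a median of 1.02. The loci are few, and nothing is read from their counts. The counts of loci also depend on the scaling. With unscaled border zone tags the numbers above sham were 1, 1 and 1, with 9 loci below sham on every listed day and 0 above. With the factor that equalises the listed tags they were 3, 3 and 4, with 6 below on every listed day and 2 above.

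The deposited calls of the window rest on small counts. The sham-higher lists held 3 of 15 members on day 4, 4 of 12 on day 7 and 1 of 13 on day 14, where they held 7.37%, 22.0% and 6.75% of all listed regions. The border zone-higher lists held 1, 1 and 0 members, where they held 12.2%, 17.5% and 13.4% of all listed regions. As the locus was chosen on this contrast, nothing is read from these shares. The nearest listed regions outside the window, 43.2 kb below it and 17.3 to 60.3 kb above it, were not differential on any day, with folds of 0.642, 1.23 and 1.2 below and 0.776, 1.05 and 0.676 above on days 4, 7 and 14.

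**Figure D3:**
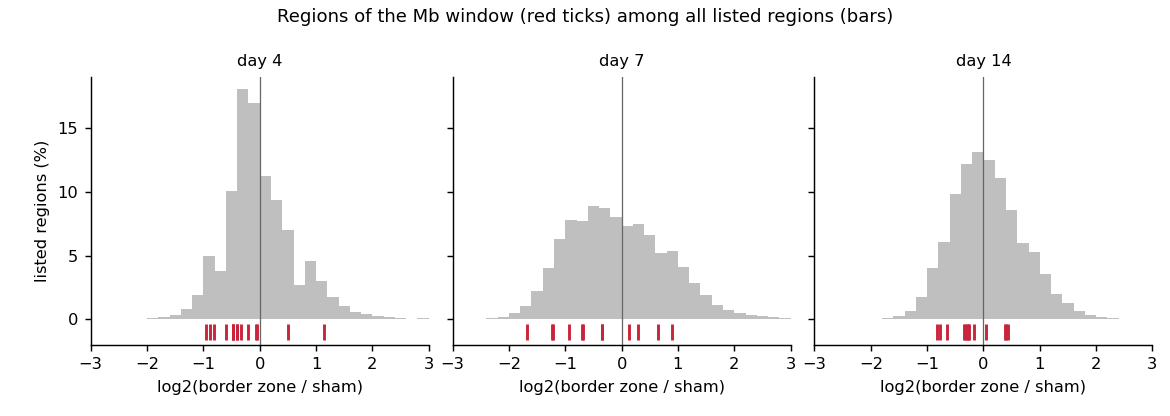
Share of all listed regions (vertical axis, %) by the log2 of border zone over sham tags (horizontal axis, bins of 0.2), with a panel for each day, and the regions of the Mb window as red ticks under the bars. The ticks spread over both sides of 0 on each day, and the leftmost of day 7 is the region with a fold of 0.313.

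Summed over the whole window, there were 3691 border zone tags, against 4944 in sham, on day 4 (fold 0.747, 0.715 to 0.779). On day 7 there were 3373 border zone tags, against 5991 in sham (fold 0.563, 0.537 to 0.59), and on day 14 15309, against 18886 in sham (fold 0.811, 0.792 to 0.83). The listed length differed little, at 24.5, 25.5 and 24.0 kb. Without the wide stretch the folds were 0.805 (0.754 to 0.861), 0.843 (0.783 to 0.907) and 1.04 (1.0 to 1.08), and in unscaled tags 0.804, 0.626 and 0.762, so on day 14 the side of 1 depends on the scaling. The stretch held 56.6%, 52.6% and 60.7% of the border zone tags of the window on days 4, 7 and 14, against 59.7%, 68.4% and 69.4% of its sham tags.

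The wide region was set beside the other wide sham-higher regions of day 7. Of the 127 day 7 regions of at least 5 kb, 42 were sham-higher, and the Mb region ranked 5 among these by width and 3 by sham tags. On day 7 its fold of 0.433 lay near the median of the 41 others, 0.429, which had all been chosen by the same list. Over the same spans, the others had a median fold of 0.832 on day 4 in the 32 that were listed, and 3 of these were below the 0.707 of Mb. On day 14 their median was 0.723 in the 37 listed, against 0.71 for Mb, and 15 were lower. The Mb stretch was thus close to the middle of these wide regions on days 7 and 14 and towards their low end on day 4, and no test of that difference was made.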

How the data were processed

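Open chromatin was measured by ATAC-seq in 6 libraries, 1 border zone and 1 sham library on each of days 4, 7 and 14. The aligner was Bowtie2 on day 4 and BWA on the later days, with mm9 as the genome and bedtools as a further tool, per the submitters' processing notes. How regions were called, how duplicates were treated and whether cut sites were shifted is not given in these sources. All 9 deposited lists hold sham tags and border zone tags of regions, per the file headers. Sham tags are deposited whole-number counts. Border zone tags are a deposited signal that the authors scaled, read from the values, except the day 4 non-differential list, which holds counts. So the day 4 sums mix unscaled and scaled values.

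Whole border zone tags were recovered as whole multiples of the factors found in each day, or sums of such terms, within a relative tolerance of 0.0006%, with Python 3.11.15, numpy 2.4.6, pandas 2.3.3 and scipy 1.17.1. The recovery was run on simulated lists, whose outcome is not given here. Those lists held only single multiples of a factor, so sums of terms and unscaled values were not tested. In the window 1 value, at 76910251 to 76911750 on day 14, was such a sum, and its whole number is less certain. Intervals are exact at 95%, for counting error only, since there is 1 library per condition and day. Tags were not counted by molecular identifier and the treatment of duplicates is not known, so the intervals may be too narrow even for counting error. Intervals of a ratio of folds are exact conditional intervals of an odds ratio. Members overlap the window by at least 1 bp. All members in the gene span and all loci of the window are described. The members, lists and comparisons were chosen with earlier results of these data known. The loci and the comparison of the upper region with the stretch were added after the values were seen. With 1 library per condition and day, no test was made. Promoters are from RefSeq (GRCm38.p6), and all 3 Mb starts matched by symbol. Coordinates count from 1. The 30 RNA-seq samples were not analysed here, and 0 columns of unmapped samples were used.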

Additional observations from a re-analysis of the deposited data

Results flagged for a closer look

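The open region at 76866251 to 76869250 differed in direction between days. Its border zone to sham fold was 0.723 on day 4 and 1.36 on day 14, each with a counting interval on its own side of 1. The difference between the days rests on 1 library pair each and was not tested. The listed region was 2.0 kb on day 4 and 2.5 kb on day 14, so the folds cover partly unlike stretches. The preparation of nuclei and the aligner also differ between these days, and their part in it was not tested. With 1 factor per day that equalises the listed tags the folds were 0.781 and 1.34, and with unscaled border zone tags the day 14 fold was 0.993.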

How the results depend on the processing

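Every fold of the window and of the wide stretch stayed below 1 on each day under every alternative run. With unscaled border zone tags the window gave 0.418 and the stretch 0.322 on day 7, and they gave 0.592 and 0.517 on day 14. These follow from leaving out the factor. With 1 factor per day that equalises listed tags, day 4 gave 0.805 for the window and 0.763 for the stretch. Over differential regions alone, which are fewer and chosen by direction, the window gave 0.443 on day 7 and 0.567 on day 14, and the stretch 0.517 on day 4 and 0.567 on day 14. At a fold of at least 2, the sham-higher members numbered 0 on day 4 and 0 on day 14, in place of 3 and 1. Within the gene span alone they numbered 1 on day 4 and 2 on day 7, in place of 3 and 4. The scalings of single loci, of their counts and of the window without the stretch were chosen after the data were seen. Among single loci, unscaled tags turned the day 14 fold to 0.993 at 76866251 to 76869250 and to 0.96 at 76898751 to 76900250. The other results moved by less than their counting interval or 1.5 times, 34 of them for the window, stretch and counts. Another 84 were for single loci, the window without the stretch and the upper region against the stretch. Many of these could hardly move, so their number does not measure stability. The median factor, the rule on regions inside the window or stretch and unscaled day 4 tags nearly repeat the listed values. The ratio of upper region to stretch is free of a common factor. A further 19 values, of single loci and the window without the stretch, moved by more. None of the 19 changed a direction whose interval lay on 1 side of 1. A test over the 3 days paired by day can be fitted and was not made, since the locus was chosen on this contrast. Each condition has 1 library on each day, so no replicate of a day could be left out. Small regions rest on few tags, such as 24.8 against 48 on day 4, and total library depth is not known.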
